A study of Mus musculus with 2 samples.

Results

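The insulin-like growth factor (IGF) system was followed in the mesentery of newborn mice through 9 genes: the binding protein genes Igfbp2, Igfbp3, Igfbp4, Igfbp5, Igfbp6 and Igfbp7, the ligand gene Igf1, and the receptor genes Igf1r and Insr. They were taken by their symbols from the 28692 genes of the deposited matrices, and no measured value entered the choice. IGF1 is a secreted growth factor that acts through the receptor tyrosine kinase IGF1R, and the closely related insulin receptor INSR binds insulin with high affinity. Secreted IGF binding proteins hold most IGF outside cells: IGFBP2 to IGFBP6 bind it tightly, and proteases free it from them, whereas IGFBP7 binds it weakly, lies in basement membranes and is well known from vascular endothelium. In vessels the binding protein genes are used in different patterns by arteries, veins, capillaries and the mural and fibroblastic cells around them.

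The 2 genotypes were compared, with 1 single-cell library each. Both were made from mesenteric CD31+ cells of C57BL/6 mice at postnatal day (P) 8, and both groups had received 40 µg of 4-hydroxytamoxifen under the skin on 4 occasions, at P2 and P3.5 and then at P5 and P6.5. The Flcn iΔEC mice carried Cdh5-BAC-CreERT2+ and Flcn flox/flox, so that the drug removed Folliculin, a tumor suppressor, from cells in which the Cdh5 (VE-cadherin) promoter was active. The exact genotype of the control mice is not given in the sources used here. CD31+ cells of several mice per genotype were pooled, so the matrices hold no animal-level replicate: no test between genotypes was possible, and no p-value is given. Intervals are exact 95% Poisson or conditional intervals and cover counting error only.

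The control library held 6814 cells with a median of 7283 unique molecular identifiers (UMIs, each standing for 1 captured RNA molecule), and the Flcn iΔEC library 4459 cells with a median of 8587. Endothelial cells were those with at least 2 UMIs of Cdh5: 566 control cells (8.31% of the library) and 892 Flcn iΔEC cells (20%), with median depths of 16127 and 24415 UMIs. All 8 pan-endothelial markers had UMIs in both, at summed levels of 5123 and 5148 counts per 1000000 UMIs (CPM). Ptprc, the pan-leukocyte gene, had a UMI in 32.5% and 21.9% of them, and its part in the levels was not tested except by leaving those cells out. Erythroid markers summed to 33.9 CPM in control and 636 in Flcn iΔEC endothelial cells. The X-linked transcript Xist had 9 and 63462 UMIs, and 4 Y-linked genes together 15535 and 17, so that the sex of the mice and the genotype cannot be told apart. There were 6 cell barcodes that occurred in both libraries. Flcn itself was at 10.2 and 9.74 CPM in endothelial cells; the 3' reads do not show whether they come from the deleted part, so this checks nothing.

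Endothelial cells were clustered without the 9 genes and the other IGF genes listed for this study, and clusters were called by markers as "like" a cell type. There were 78 control and 297 Flcn iΔEC lymphatic-like cells, 19 and 43 lymph node sinus lymphatic-like cells, 74 and 121 venous-like cells, 157 and 64 microvascular cells (with arterial and capillary markers), 52 and 110 large artery-like cells, and 55 and 75 cells like those of high endothelial venules (HEVs), the vessels through which lymphocytes enter lymph nodes. Another 131 (23.1%) and 182 (20.4%) endothelial cells lay in clusters that stayed unnamed, led by cell cycle, hemoglobin or blood cell genes. Outside the endothelium, 25 and 27 mesenchymal-like cells, 2529 and 1099 T cell-like cells, 2326 and 1312 B cell-like cells, and 268 and 224 innate lymphoid-like cells were compared. A level is the gene's summed UMIs in a cell type divided by all UMIs of those cells, in CPM. These names were rebuilt from the matrices, so cell numbers and levels can differ from the study's own. Levels of different genes are not compared with each other as amounts, except as shares of UMIs of the same kind of 3' count.

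Igfbp2 and Igfbp5 are neighbours on chromosome 1 of the mouse genome (build GRCm38), at chr1:72824503-72852474 on the plus strand and chr1:72857932-72874884 on the minus strand, with 5457 bases between them. Igfbp3 lies at chr11:7206086-7213923 on the minus strand, 3539 bases from Igfbp1, and Igfbp4 lies elsewhere on that chromosome, at chr11:99041244-99054392 on the plus strand. Igfbp6 lies at chr15:102144362-102149511 (plus), Igfbp7 at chr5:77349240-77408041 (minus), Igf1 at chr10:87858265-87937042 (plus), Igf1r at chr7:67952827-68233668 (plus) and Insr at chr8:3122061-3279617 (minus). An antisense gene, Igf1os, overlaps the start of Igf1 on the other strand and had 1 UMI in each library.

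RefSeq promoter sequences were found for 8 of the 9 genes. The 250 bases before the start are printed for the 4 genes whose levels set the endothelial types or the libraries apart most clearly in the results that follow, 5′ to 3′ on the gene's own strand (build GRCm38.p6). Capitals mark matches to a GC box (GGGCGG and its reverse complement), a TATA element (TATAAA and its reverse complement) or an E-box (CACGTG, which is its own reverse complement), so that both strands were searched.
Igfbp7, chr5:77408046-77408295, minus strand: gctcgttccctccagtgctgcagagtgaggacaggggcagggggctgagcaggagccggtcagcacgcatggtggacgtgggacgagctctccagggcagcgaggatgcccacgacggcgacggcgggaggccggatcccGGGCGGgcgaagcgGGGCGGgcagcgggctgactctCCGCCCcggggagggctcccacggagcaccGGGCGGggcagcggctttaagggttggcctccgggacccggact
Igfbp3, chr11:7213924-7214173, minus strand: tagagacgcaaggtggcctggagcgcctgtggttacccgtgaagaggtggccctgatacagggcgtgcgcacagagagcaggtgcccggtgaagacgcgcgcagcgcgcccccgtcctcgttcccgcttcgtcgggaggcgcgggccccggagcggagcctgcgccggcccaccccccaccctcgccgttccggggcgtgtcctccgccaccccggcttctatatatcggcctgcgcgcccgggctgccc
Igfbp4, chr11:99040994-99041243, plus strand: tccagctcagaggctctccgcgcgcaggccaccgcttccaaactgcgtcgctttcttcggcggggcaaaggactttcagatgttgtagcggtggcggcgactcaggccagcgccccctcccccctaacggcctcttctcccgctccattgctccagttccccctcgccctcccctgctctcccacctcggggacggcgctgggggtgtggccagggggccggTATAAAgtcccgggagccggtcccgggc
Igf1, chr10:87860861-87861110, plus strand: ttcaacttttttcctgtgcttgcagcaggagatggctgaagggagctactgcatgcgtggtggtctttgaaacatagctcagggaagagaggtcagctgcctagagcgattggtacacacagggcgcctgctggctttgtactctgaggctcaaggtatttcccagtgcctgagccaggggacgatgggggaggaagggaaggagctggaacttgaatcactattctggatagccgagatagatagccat
The Igfbp7 window held 4 GC boxes and 74.0% G and C. The Igfbp4 window held 1 TATA element near its end and 69.2% G and C. The Igfbp3 window, at 73.2%, and the Igf1 window, at 52.8%, held none of the 3 motifs. Of 32851 mouse promoter windows of that length, 32.7% held a GC box, 12.4% a TATA element and 6.02% an E-box, and the median share of G and C was 52.4%. The Igf1 window precedes a RefSeq start that lies inside the gene's span. A match is a description of letters and not of a bound site.

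Among the binding protein genes, Igfbp7 set the endothelial types apart most clearly. In control cells it stood at 4776 (4679 to 4876) CPM in microvascular cells, 4101 (4031 to 4173) in HEV-like cells, 1075.9 in sinus lymphatic-like cells, 567.8 (531 to 607) in venous-like cells, 384 (354 to 416) in lymphatic-like cells and 22.1 (14.3 to 32.6) in large artery-like cells. In Flcn iΔEC cells the same order gave 4071.5, 3162, 446.4, 318.4, 281 and 6.95. The order of these summed levels was the same in both libraries, and the counting intervals of no pair of neighbours in it overlapped. The median control cell did not follow it for 1 pair, at 77.5 in venous-like and 266 in lymphatic-like cells. Large artery-like cells came nearest to T cell-like cells, at 9.35 and 6.74, and B cell-like cells, at 9.37 and 4.58. Innate lymphoid-like cells were higher, at 72.8 and 73.0 without their highest cell. Ptprc had a UMI in 83.6% and 80% of HEV-like cells, and its part in their values was not tested. Within the microvascular cells, a cluster led by Esm1, Col13a1 and Rgcc had 8054.5 and 9455 CPM, above the cluster led by Cxcl12 and Rbp7 with 4202 and 2811. After each cell was thinned to 2000 UMIs, 94.6% of control and 90.0% of Flcn iΔEC microvascular cells kept an Igfbp7 UMI (98.1% and 96.9% before thinning), against 3.13% and 1.09% of large artery-like cells. B cell-like cells, which gave the background share, were at 1.97% and 1.02% (6.36% and 3.66% before thinning). Thinning left 560 of 566 and 889 of 892 endothelial cells, and 2323 of 2326 and 1310 of 1312 B cell-like cells, whose median depths were 6183.5 and 7631 UMIs.

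Igfbp4, the gene of a widely made binding protein that the protease PAPP-A cleaves, was highest where Igfbp7 was lowest, in the large artery. It stood at 3214 (3110 to 3320) CPM in control and 4501 (4422 to 4581) in Flcn iΔEC large artery-like cells. The next endothelial type, venous-like cells, had 838 and 888, and HEV-like cells were lowest with 268 and 248. Microvascular cells had 658 and 539, sinus lymphatic-like cells 590.2 and 726, and lymphatic-like cells 502 and 333.5. The large artery-like level was thus several times that of every other endothelial type in both libraries, whereas the middle of the order differed between them.

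Igfbp4 was also the binding protein gene of T cells. It had 366 (357.5 to 374) CPM in control and 437 (423 to 450.5) in Flcn iΔEC T cell-like cells, and 7.31 and 10.6 in B cell-like cells, a ratio of 50.03-fold (41.8 to 60.4) and 41.1-fold (34.2 to 49.9). Of all genes tested between these blood cells, 23.7% in control and 20.7% in Flcn iΔEC lay past 2-fold, and Igfbp4 was the only one of 4 tested members past it in each. Of the 4 T cell-like clusters, it was at 511 and 572 in the cluster led by Tesc and Itm2a, at 438 and 546 in the cluster with Cd40lg and Cd28, at 169 and 277 in the cluster led by Cd8b1 and Cd8a, and lowest, at 54.8 and 66.2, in the cluster with Foxp3, the gene of the regulatory T cell factor. An Igfbp4 UMI remained in 39.7% and 46.7% of T cell-like cells thinned to 2000 UMIs (65.4% and 75% before) and in 1.27% and 1.82% of thinned B cell-like cells (4.21% and 6.40% before). Median depths were 7496 and 7747 UMIs in T cell-like cells. Innate lymphoid-like cells stood between, at 50.8 and 50.3 CPM.

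Igfbp3, which codes for the main IGF carrier of blood plasma, was a microvascular gene here. Microvascular cells had 910 (868 to 954) CPM in control and 543 (501 to 588) in Flcn iΔEC, large artery-like cells 215 and 177, and HEV-like cells 42.4 and 58.1. Venous-like cells had 14.4 and 2.26, lymphatic-like cells 5.17 and 15.7, and sinus lymphatic-like cells 1.41 and 8.83. The microvascular, large artery-like and HEV-like cells thus took the same ranks in both libraries, and the low levels of the other 3 types did not. B cell-like cells were at 0.907 and 0.275. Igfbp3 was also among the 10 genes with the largest fold in the Cxcl12 and Rbp7 cluster, although it had been left out of the clustering.

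**Figure D1:**
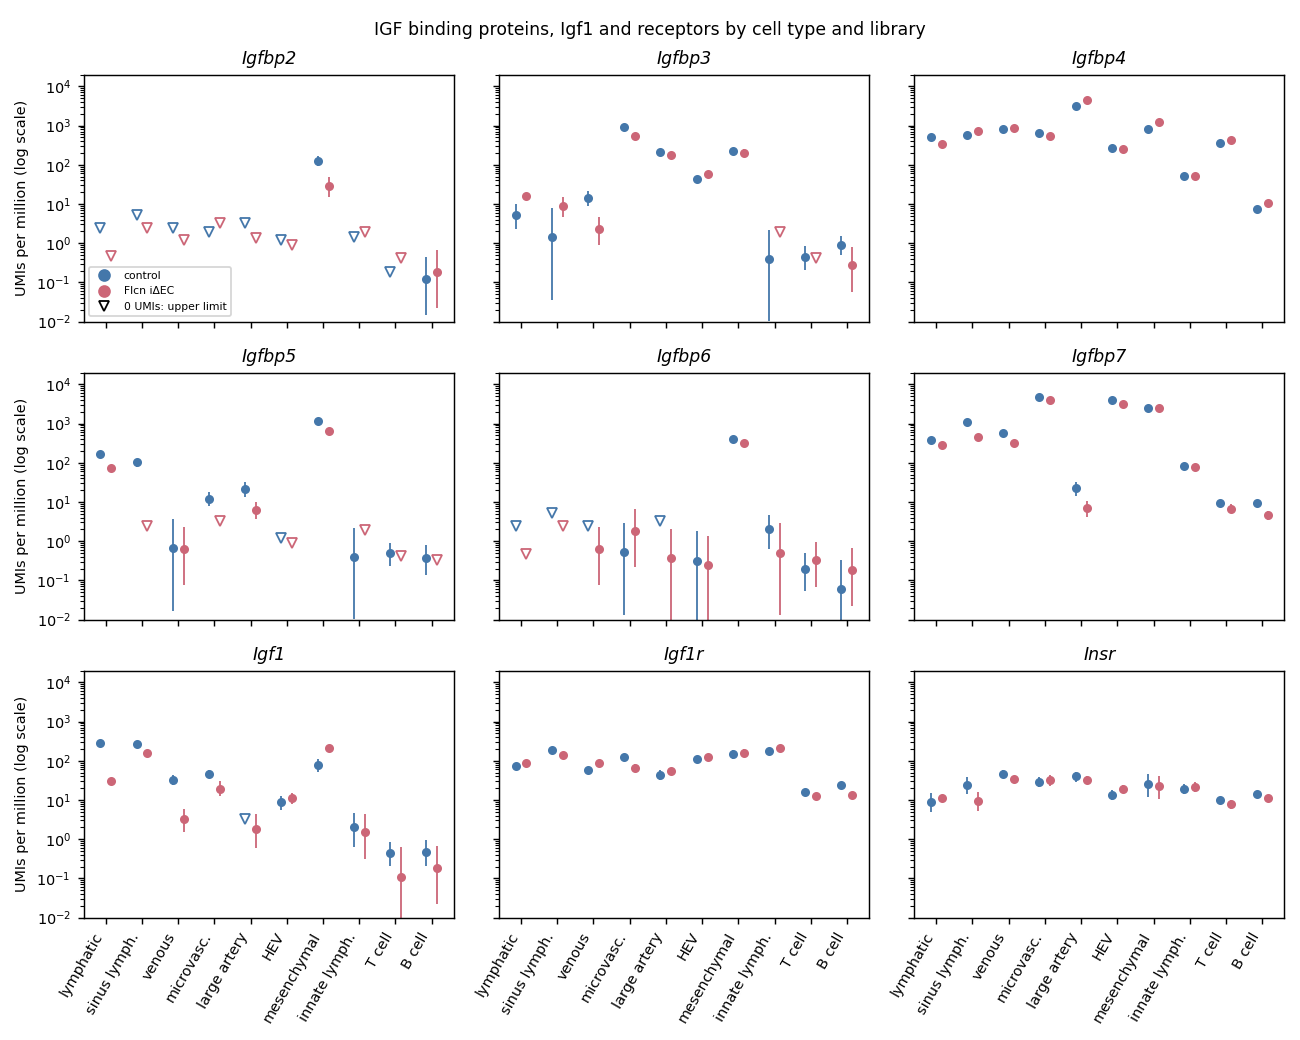
Level of each gene in CPM (vertical axis, log scale) in 10 cell types (horizontal axis), in the control library (blue) and the Flcn iΔEC library (red), with bars for exact 95% Poisson intervals and open triangles for the upper limit where no UMI was found. Igfbp7 is high in microvascular and HEV-like cells, Igfbp4 in large artery-like cells, and Igfbp2 and Igfbp6 in mesenchymal-like cells.

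Igfbp5, the gene of a binding protein that attaches to extracellular matrix, was the one carried by few cells. In lymphatic-like cells it had 164 (145 to 186) CPM in control, from 254 UMIs in 22 of 78 cells, and 72.1 (66.3 to 78.3) in Flcn iΔEC, from 569 UMIs in 14 of 297 cells. The tenth of lymphatic-like cells with most Igfbp5 held 77.95% of its UMIs in control and 100% in Flcn iΔEC, and the highest cell alone held 20.5% and 26.4%. Thinned to 2000 UMIs, 14.2% and 2.22% of lymphatic-like cells had an Igfbp5 UMI. Elsewhere in the endothelium its counts rested on few cells too: all 72 control UMIs in sinus lymphatic-like cells came from 1 cell, as did 22 of 23 control UMIs in microvascular cells. Large artery-like cells were at 21.2 and 6.22, and HEV-like cells had none in either library. In the unnamed cell cycle cluster it was at 3.62 in control and 142.9 in Flcn iΔEC, the latter from 417 UMIs in 5 of 60 cells.

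Igfbp2 and Igfbp6 were not endothelial genes in this tissue. Igfbp2, whose product circulates in blood, had no UMI in any endothelial cell of either library, for which a floor of 3 counts over each library's endothelial cells was set, equal to 0.215 CPM in control and 0.110 in Flcn iΔEC (the upper bounds of the exact intervals were 0.264 and 0.136). In mesenchymal-like cells it was at 127, from 50 UMIs in 7 of 25 cells, and at 29.0, from 13 UMIs in 4 of 27 cells. Against that floor the mesenchymal level was at least 592-fold higher in control and at least 263-fold higher in Flcn iΔEC. Igfbp6, whose product prefers IGF2 to IGF1, had 7 and 6 UMIs in all endothelial cells and stood at 397 and 324 CPM in mesenchymal-like cells, 792-fold (375.5 to 2003) and 1467-fold (658 to 4065) higher. All of its mesenchymal UMIs lay in the cells with more fibroblast than smooth muscle marker RNA, at 639 and 426.5, and the cells with more smooth muscle marker RNA had none.

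Mesenchymal-like cells held every one of the 6 binding protein genes. Igfbp7 was at 2475.5 and 2517 there, with 3296 and 5197 in the cells richer in smooth muscle markers and 1975 and 1665 in those richer in fibroblast markers. Igfbp5 was at 1184 and 660.5, Igfbp4 at 797 and 1223, and Igfbp3 at 222 and 203. Of all genes tested between endothelial and mesenchymal-like cells, 28.6% in control and 30.4% in Flcn iΔEC lay past 2-fold. Of the members, 3 of 9 in control (Igfbp2, Igfbp5 and Igfbp6) and 5 of 8 in Flcn iΔEC did so, all lower in endothelial cells, with member medians of -0.26 and -1.63 on the log2 scale beside 0.06 for all genes in both. In control, Igfbp7 (log2 ratio -0.22) and Igfbp3 (-0.22) were near equal in endothelial and mesenchymal-like cells, and in Flcn iΔEC the ratios were -1.53 and -1.73.

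The make-up of the binding protein RNA, as shares of all UMIs from the 6 Igfbp genes, separated the vessel types as well. In microvascular cells, Igfbp7 held 75.1% and 79.0% in control and Flcn iΔEC, Igfbp3 14.3% and 10.5%, and Igfbp4 10.35% and 10.45%. In lymphatic-like cells, Igfbp4 held 47.55% and 47.46%, Igfbp7 36.4% and 40.05%, and Igfbp5 15.6% and 10.3%, of a total that was lower in Flcn iΔEC (1055.4 and 702.7 CPM). In large artery-like cells, Igfbp4 held 92.6% and 95.95%, and in HEV-like cells Igfbp7 held 92.95% and 91.2%. In venous-like cells, Igfbp4 held 59.0% and 73.4% and Igfbp7 40.0% and 26.3%. Over all endothelial cells, Igfbp7 held 68.3% in control and 46.3% in Flcn iΔEC, and Igfbp4 24.5% and 48.5%. The leading gene was therefore Igfbp7 in control endothelium and, by a small margin, Igfbp4 in Flcn iΔEC endothelium, and the leading gene changed in the same way in sinus lymphatic-like cells, where Igfbp7 held 60.8% and 37.8% and Igfbp4 33.4% and 61.5%. Within the other 5 endothelial types the leading gene was the same in both libraries.

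**Figure D2:**
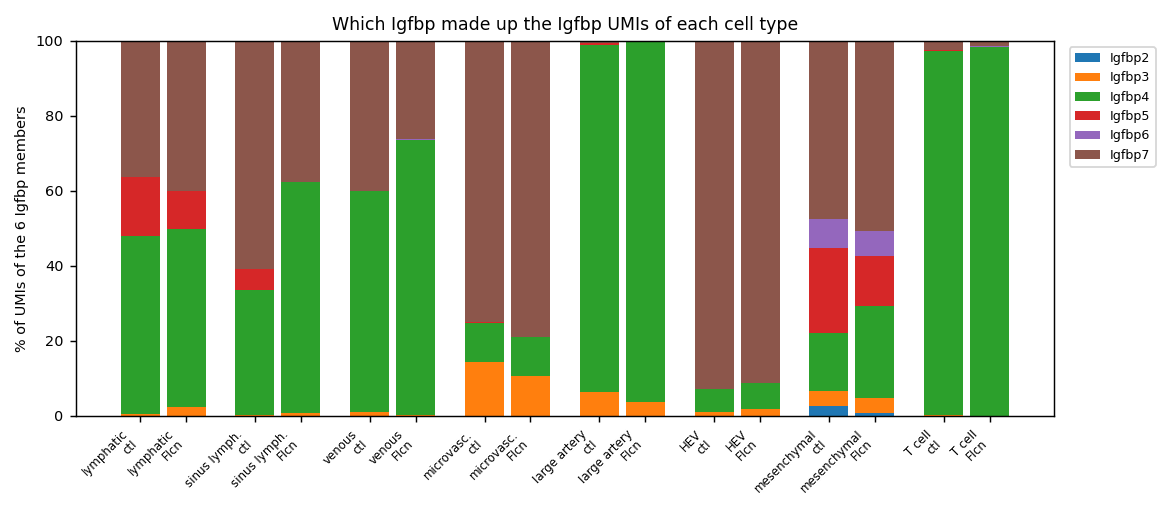
Share of all Igfbp UMIs (vertical axis, percent) held by each of the 6 binding protein genes (stacked colours) in 8 cell types, with 1 bar for each library. Igfbp7 fills most of the microvascular and HEV-like bars and Igfbp4 most of the large artery-like and T cell-like bars.

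Igf1, the ligand gene, was a lymphatic gene in the control endothelium. It stood at 285 (259 to 313) CPM in control lymphatic-like cells, from 441 UMIs in 57 of 78 cells, and at 272.5 in sinus lymphatic-like cells, in 17 of 19 cells. Microvascular cells had 46.4, venous-like cells 32.1 and HEV-like cells 8.66, and large artery-like cells had none. In Flcn iΔEC cells the sinus lymphatic-like cells were highest with 154, in 36 of 43 cells, followed by lymphatic-like cells with 30.3 (26.6 to 34.4), from 239 UMIs in 53 of 297 cells. Microvascular cells then had 19.6, HEV-like cells 11.1, venous-like cells 3.23 and large artery-like cells 1.83. Lymphocytes were near 0, with 0.447 and 0.111 in T cell-like and 0.484 and 0.183 in B cell-like cells, and myeloid-like cells had 29.3 and 33.5.

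The receptor genes varied less. Igf1r stood at 178 (161 to 195) CPM in control and 212 (192 to 233) in Flcn iΔEC innate lymphoid-like cells, at 183.5 and 141 in sinus lymphatic-like cells and at 148 and 156 in mesenchymal-like cells, which were the highest of the named types in both libraries. Among the other endothelial types it ranged from 44.2 in large artery-like to 122 in microvascular cells in control, and from 55.2 in large artery-like to 124 in HEV-like cells in Flcn iΔEC. B cell-like cells had 23.8 and 13.3, T cell-like cells 15.6 and 12.4, and erythroid-like cells none in either library. In innate lymphoid-like cells thinned to 2000 UMIs, 30.7% and 36.9% kept an Igf1r UMI, against 4.88% and 2.79% of thinned B cell-like cells.

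Insr, the insulin receptor gene, was low throughout. It was at 47.1 and 33.9 CPM in venous-like cells, 39.8 and 32.5 in large artery-like cells, 29.0 and 32.1 in microvascular cells, 13.5 and 19.1 in HEV-like cells and 9.05 and 11.2 in lymphatic-like cells. Mesenchymal-like cells had 25.5 and 22.3, and B cell-like cells 13.8 and 11.4. Most neighbours in this order had overlapping intervals, so the order is not resolved at this depth; in Flcn iΔEC only the step from HEV-like to lymphatic-like cells had intervals that stood apart.

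Lymphatic endothelial cells (lymphatic-like and sinus lymphatic-like, 97 and 340 cells) were then compared with blood endothelial cells (venous-like, microvascular, large artery-like and HEV-like, 338 and 370 cells) within each library. Of all genes tested, 14.8% lay past 2-fold in control and 20.1% in Flcn iΔEC, with medians of 0.07 and -0.05 on the log2 scale. Of the 7 members tested, 4 in control and 6 in Flcn iΔEC lay past it, with member medians of -0.78 and -1.35. Igfbp5 was higher in lymphatic cells, with 145 against 6.26 CPM in control (23.1-fold, 17.0 to 32.0) and 60.8 against 1.73 in Flcn iΔEC (35.2-fold, 22.3 to 58.9). Igf1 was higher too, with 281 against 21.4 in control (13.2-fold, 11.1 to 15.7) and 49.8 against 7.46 in Flcn iΔEC (6.68-fold, 5.27 to 8.55). Igfbp3 and Igfbp7 went the other way in both libraries: Igfbp3 had log2 ratios of -5.96 and -3.04, and Igfbp7 of -2.30 and -2.44. Igf1r was near equal, with log2 ratios of 0.22 and 0.07. Of the 23 control lymphatic cells with an Igfbp5 UMI, 18 also had an Igf1 UMI, as did 74 of all 97, and of the 14 Flcn iΔEC cells with Igfbp5, 10 also had Igf1, as did 89 of all 340.

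Large artery-like and venous-like cells differed in the levels of 3 binding protein genes, although Igfbp4 led in both. Between large artery-like and venous-like cells, 13.6% of all genes tested lay past 2-fold in control and 12.6% in Flcn iΔEC, and 3 of 5 members did in each, with member medians of -0.23 and -0.06 beside -0.08 and -0.12 for all genes. Igfbp4 was higher in large artery-like cells, 3.84-fold (3.598 to 4.09) in control and 5.07-fold (4.86 to 5.28) in Flcn iΔEC. Igfbp3 was higher there too, 14.9-fold and 78.2-fold, but venous-like cells had only 22 control and 7 Flcn iΔEC UMIs of it. Igfbp7 was lower in large artery-like cells, 25.7-fold (17.3 to 39.9) and 45.8-fold (29.2 to 76.5). Microvascular cells, which also had arterial markers, lay on the other side of venous-like cells for 2 of these genes. Their Igfbp7 was higher, at 4776 and 4071.5 against 567.8 and 318.4 CPM, and their Igfbp4 lower, at 658 and 539 against 838 and 888. Igf1r (log2 ratios -0.35 and -0.63) and Insr (-0.23 and -0.06) stayed within 2-fold.

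The last comparison set the Flcn iΔEC library against the control library, to describe the members where Folliculin had been deleted in the endothelium. Over all endothelial cells, 9.91% of 12798 tested genes lay past 2-fold, 469 higher and 799 lower in Flcn iΔEC, and the median of all genes was -0.13 on the log2 scale, so single ratios are read beside that shift. Of 7 tested members, 3 lay past it, each lower in Flcn iΔEC: Igfbp3 (log2 ratio -1.64), Igf1 (-1.33) and Igfbp7 (-1.28). Igfbp4 had 0.26, Igfbp5 0.39, Igf1r -0.06 and Insr -0.34, and the member median was -0.34.

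The cell types made up different parts of the 2 libraries. Microvascular cells, where Igfbp3 and Igfbp7 were highest, made up 27.74% of the control endothelium and 7.17% of that of Flcn iΔEC, and lymphatic-like cells 13.78% and 33.3%. When each type was given the same weight in both libraries, the log2 ratio of Igfbp3 was -0.72, that of Igfbp7 -0.48 and that of Igf1 -2.07, so that Igf1 alone stayed past 2-fold. Igfbp5 turned to -0.71, and Igfbp4 was at 0.21. An unnamed cluster of 46 Flcn iΔEC cells, described below, had no control cells and took no part in these weighted ratios.

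Within the types, Igf1 was past 2-fold lower in Flcn iΔEC in lymphatic-like, venous-like and microvascular cells. The summed level of Igfbp7 was lower in each of the 6 types, within 2-fold in lymphatic-like, venous-like, microvascular and HEV-like cells. In venous-like cells the tenth with most Igfbp7 held 65.8% of its control UMIs, and the median cell was higher in Flcn iΔEC (77.5 and 228 CPM). In large artery-like cells 15 of 25 control Igfbp7 UMIs lay in 1 cell, and without the highest cell the levels were 8.94 and 5.96. In lymphatic-like cells 10.4% of genes lay past 2-fold (median of all genes -0.21) and 3 of 7 members did. Igf1 was 9.42-fold (8.03 to 11.1) lower there, with 285 and 30.3 CPM, Igfbp5 had a ratio of 0.439 (0.378 to 0.511), and Igfbp3 was higher, with a ratio of 3.04 (1.49 to 7.19) from 8 control and 124 Flcn iΔEC UMIs. When lymphatic cells were taken by marker gates on each cell in place of clusters, the log2 ratios of Igfbp3 and Igfbp5 were 0.095 and -0.383, within 2-fold. Igf1 UMIs were present in 73.1% and 17.8% of lymphatic-like cells, and in 35.8% and 3.49% after thinning to 2000 UMIs, against 0.108% and 0.0262% of thinned B cell-like cells. In venous-like cells 7.7% of genes lay past 2-fold (median -0.09), and Igf1 alone of 5 members did, with a ratio of 0.101 (0.0455 to 0.201). This class was shared by the libraries only after integration: without it, 1 Flcn iΔEC cell was venous-like and no ratio could be given. In microvascular cells 5.38% did (median -0.08), and Igf1 alone of 6 members did, with a ratio of 0.423 (0.252 to 0.681), which came within 2-fold without Ptprc-positive cells (log2 ratio -0.974). That ratio rests on 88 control and 22 Flcn iΔEC UMIs, the latter in 6 of 64 cells with 40.9% in 1 cell. In the Cxcl12 and Rbp7 cluster of microvascular cells Igf1 was at 42.7 and 22.0 CPM, within 2-fold. In HEV-like cells (4.3%) none of 6 members lay past 2-fold and Igf1 had a log2 ratio of 0.34, and in large artery-like cells (5.11%) none of 4 did. In sinus lymphatic-like cells, of which the control had only 19, 7.44% of genes and 2 of 5 members lay past 2-fold: Igfbp7 (ratio 0.415, 0.373 to 0.461) and Igfbp5, whose control UMIs came from 1 cell. Igf1 was at 272.5 and 154 there, within 2-fold.

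**Figure D3:**
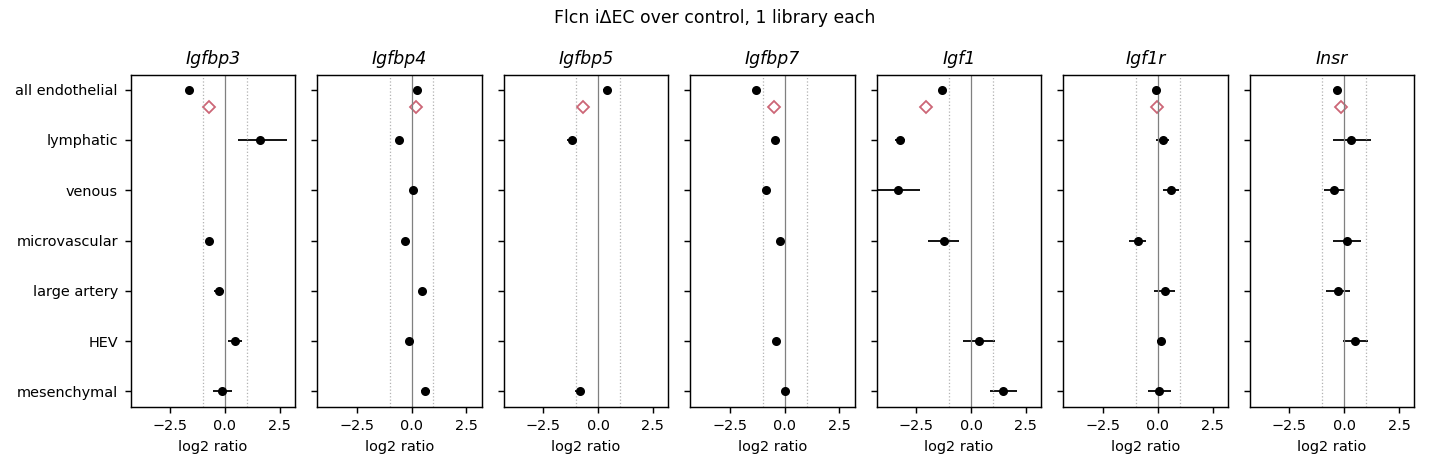
Log2 ratio of Flcn iΔEC over control (horizontal axis) for 7 members in all endothelial cells, in 5 endothelial types and in mesenchymal-like cells, with lines for exact conditional 95% intervals, open diamonds for the ratio at equal type composition and dotted lines at 2-fold. Igf1 lies at -3.23 in lymphatic-like and -3.20 in venous-like cells and at 1.43 in mesenchymal-like cells.

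The lower Igf1 of the lymphatic-like cells was found in each of their 3 clusters. In the cluster led by Lcn2 and Fgl2 it was at 401 in control, in 40 of 43 cells, and at 54.6 in Flcn iΔEC, in 48 of 156 cells, a ratio of 0.136 (0.115 to 0.161). In the cluster led by Aqp8 it was at 176, from 78 UMIs in 10 of 21 cells, and at 0.984, from 3 UMIs in 3 of 119 cells, a ratio of 0.00559 (0.00113 to 0.0169). In the cluster led by Lyve1 and Reln it was at 60.2 from 14 UMIs and at 3.58 from 2 UMIs, a ratio of 0.0595 (0.00657 to 0.259). Igfbp5 differed between these clusters: in the Aqp8 cluster it had 143 UMIs in 9 of 21 control cells and none in 119 Flcn iΔEC cells, at least 328-fold lower, whereas in the Lcn2 and Fgl2 cluster it was at 126, in 12 of 43 cells, and at 132, in 12 of 156 cells. Of all genes tested, 11.2% in the Lcn2 and Fgl2 cluster, 12.8% in the Aqp8 cluster and 8.86% in the Lyve1 and Reln cluster lay past 2-fold.

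**Figure D4:**
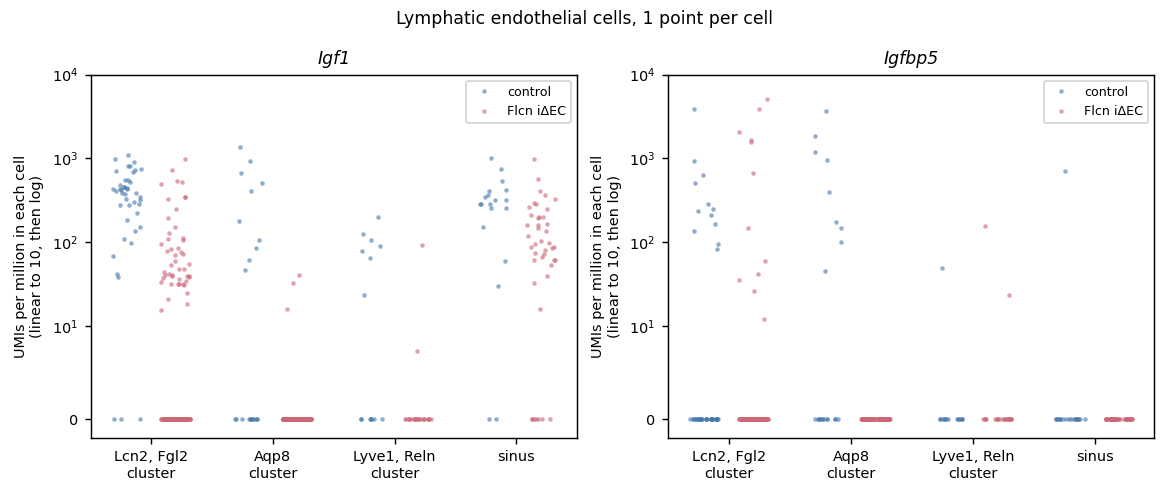
Igf1 and Igfbp5 in each lymphatic cell (points; vertical axis in CPM, linear to 10 and logarithmic above) by cluster, with control cells in blue and Flcn iΔEC cells in red. In the Aqp8 cluster 3 of 119 Flcn iΔEC cells hold Igf1 and none holds Igfbp5.

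Other markers moved with these values. In lymphatic-like cells, all 7 lymphatic markers had UMIs in both libraries, at summed levels of 3367 and 3043 CPM, and the 6 lymph node sinus markers summed to 274 in control and 13.1 in Flcn iΔEC. The collecting vessel and valve list stood at 1355.5 and 623.5, the arterial list at 926 and 223, and blood markers at 93.8 and 62.5, while fibroblast markers were at 12.9 in both. In venous-like cells, fibroblast markers stood at 158 and 20, the sinus list at 109 and 13.2, capillary markers at 8651 and 2812, and lymphatic markers at 91.6 and 201.9. Of these lymphatic sums, Prox1 made up 50.4 in control and 151 in Flcn iΔEC. In microvascular cells, fibroblast markers stood at 103 and 1.78 and smooth muscle and pericyte markers at 333 and 31.2. Their part in the Igf1 and Igfbp5 values was not tested. Depth also differed, with medians of 14606.5 and 23371 UMIs per lymphatic-like cell.

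Within microvascular cells, Igfbp3 was at 900.5 in control and 384 in Flcn iΔEC in the Cxcl12 and Rbp7 cluster (log2 ratio -1.23), where 5.99% of genes lay past 2-fold and Igfbp3 was the only one of 6 members. In the Esm1, Col13a1 and Rgcc cluster it was at 964 and 1222.5, and none of 3 members lay past 2-fold (7.57% of genes). The pooled microvascular ratio of -0.74 thus covered a lower value in the first cluster and a higher summed value in the second, which holds 17 Flcn iΔEC cells. That higher value rests on 1 cell, which held 51.9% of the Igfbp3 UMIs of those 17 cells. Without the highest cell of each library, the second cluster was at 851 in control and 695 in Flcn iΔEC. Igfbp7 was at 4202 and 2811 in the first cluster and at 8054.5 and 9455 in the second. Without the highest cell, Igfbp7 in the second cluster was at 8006 and 9230.

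An unnamed cluster of 46 endothelial cells was present in the Flcn iΔEC library, with 0 control cells. It was led by hemoglobin genes and the imprinted RNAs H19 and Meg3, and all 7 lymphatic and all 7 venous markers had UMIs in it, at sums of 592 and 954 CPM. Most of the lymphatic sum was Prox1, which stood at 490 CPM and had a UMI in 44 of the 46 cells. Its Igfbp7 level was 191 CPM, its Igfbp4 level 166, its Igf1r level 82.1 and its Insr level 18.3. Against venous-like cells of that library, 9.12% of genes and 1 of 4 members lay past 2-fold, Igfbp4 being lower (log2 ratio -2.41). Against lymphatic-like cells, 10.1% of genes and 3 of 7 members did, with Igfbp3 (-2.91), Igfbp5 and Igf1 (-3.85) lower. Igfbp5 had no UMI in the cluster and Igf1 had 2. Erythroid markers summed to 11263 CPM in these cells, and their part in the values was not tested.

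Outside the endothelium, in mesenchymal-like cells 4.78% of genes and 2 of 8 members lay past 2-fold, Igfbp2 lower and Igf1 higher in Flcn iΔEC. Igfbp2 had a ratio of 0.228 (0.114 to 0.426), with 38% of its 50 control UMIs and 53.85% of its 13 Flcn iΔEC UMIs in the highest cell. The cells richer in smooth muscle markers held 31 of the 50 control UMIs (10 cells) and none in Flcn iΔEC (7 cells), and those richer in fibroblast markers were at 77.9 and 38.2. Igf1 was higher, with 76.4 from 30 UMIs and 210 from 94 UMIs (ratio 2.75, 1.80 to 4.29). The cell with most Igf1 held 36.7% of its control and 42.6% of its Flcn iΔEC UMIs, and without it the levels were 50.6 and 126. In T cell-like cells (1.9% of genes) and innate lymphoid-like cells (1.55%), none of 4 members lay past 2-fold, and in B cell-like cells (2.51%) Igfbp7 did (log2 ratio -1.01), at levels of 9.37 and 4.58.

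The other genes of the IGF system were read from 5 lists drawn up by function. The lists of other ligands and carriers, of signalling genes and of IGF mRNA binding proteins had no gene past 2-fold over all endothelial cells among 2, 25 and 2 tested, with list medians of -0.30, -0.20 and 0.36 on the log2 scale. Igf2, the fetal growth factor gene, belonged to the first of these. It was at 423 CPM in control and 131 in Flcn iΔEC large artery-like cells, at 265 and 156 in lymphatic-like cells and at 2.57 and 3.46 in HEV-like cells. The hemoglobin-led cluster of the Flcn iΔEC library had 324. Among the signalling genes, Sos1, which couples receptors to Ras, had the ratio farthest from 0 (-0.76).

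The list of proteases that cut IGF binding proteins, with their inhibitors, had 5 of 10 tested genes past 2-fold, 4 higher and 1 lower in Flcn iΔEC, and a median of 0.38, beside 9.91% of all genes (469 higher and 799 lower) and a median of -0.13. Plat, the gene of tissue plasminogen activator, was at 39.7 in control and 740 in Flcn iΔEC endothelial cells (log2 ratio 4.22), and at 147 and 1760 in lymphatic-like cells. Ctsd, the lysosomal protease cathepsin D, was at 246 and 700 (1.51). Pappa, the protease of IGFBP4, was at 2.72 and 8.71 (1.65), and Stc1, a stanniocalcin that inhibits it, at 14.2 and 31.8 (1.16). Htra3 was the lower one, at 3.22 and 0.515 (-2.58). In lymphatic-like cells, its highest type in control, Pappa was at 14.87 and 20.02, within 2-fold. Stc1, highest in control in microvascular cells, was at 35.83 and 59.76 there, also within 2-fold. Ctsd and Htra3 were highest in control in sinus lymphatic-like cells. There Ctsd was at 509.7 and 1467.6, more than 2-fold apart. Htra3 was at 9.883 and 0.6794 in that type, of which the control had only 19 cells. The Flcn iΔEC level lay below the 3-count floor of 2.04 CPM, so no fold is read from it. Over all endothelial cells Htra3 had 45 and 14 UMIs. The part of cell type make-up in the ratios of this list was not tested. Htra1, a secreted protease that stands in this list and the next, was within 2-fold and, like Igfbp4, highest in the large artery, with 2382 and 2274 in large artery-like cells. Of the 7 tested genes related by the IGFBP fold, Wisp1 alone lay past 2-fold, at 5.23 and 2.54 (-1.04), and Esm1, the endothelial tip cell gene, was at 203 and 415 in microvascular cells.

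**Figure D5:**
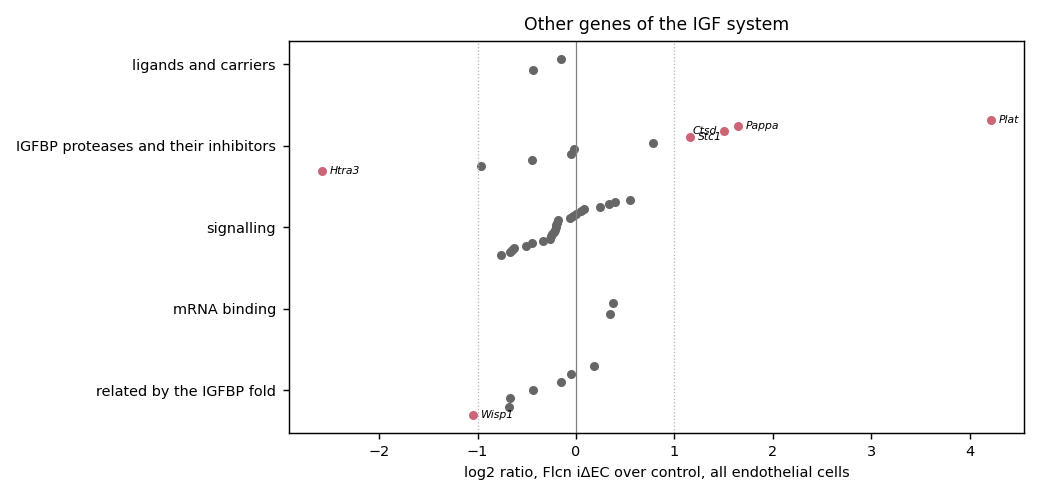
Log2 ratio of Flcn iΔEC over control in all endothelial cells (horizontal axis) for other genes of the IGF system, grouped by list, with genes past 2-fold in red. Plat, Pappa, Ctsd and Stc1 lie above 2-fold and Htra3 and Wisp1 below it.

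Genes whose levels ran most like each member were found by Pearson's r of log2(CPM + 1) over 52 sums, those of 26 clusters in 2 libraries, among 12556 genes. The sums share libraries and many are of related blood cells, so the values only describe likeness. Igfbp7 was followed most closely by the basement membrane collagen genes Col4a1 (0.939) and Col4a2 (0.933). Igfbp2 and Igfbp6 shared the matrix genes Col6a2 (0.963 and 0.907) and Ogn (0.952 and 0.911). For Igfbp3 the nearest was Tmem47 (0.911), for Igfbp4 Actn1 (0.876), for Igfbp5 Postn (0.862), for Igf1 Nr2f1 (0.866), for Igf1r Pja2 (0.9) and for Insr Rhob (0.8). Between members, the highest values were 0.886 for Igfbp2 with Igfbp6 and 0.809 for Igfbp7 with Igf1.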

How the data were processed

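CD31+ cells were isolated with antibody-coated magnetic beads from the mesentery of control and Flcn iΔEC mice, and 1 Chromium Single Cell 3' v3 library was made per genotype. The authors deposited a matrix of raw UMI counts per gene and cell for each library, made with Cell Ranger 3.0 on build mm10 per the submitters' processing notes, with PCR duplicates removed; the gene annotation is not given in the sources used here. Total deposited counts were 64639756 UMIs for control and 60805779 UMIs for Flcn iΔEC, and all cells in the matrices were kept. No column was left unmapped.

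Cells with at least 2 Cdh5 UMIs, and separately all other cells, were integrated across libraries by anchors and clustered in Seurat 5.3.0 (R 4.3.3; 2000 variable features less the IGF genes listed here, 30 dimensions, resolution 0.8). This gave 14 endothelial and 20 other clusters, named from marker lists; a marker counted towards a name at 20 CPM or more and at least 2-fold above the other clusters, and the number of markers a name needed was set after the clusters were seen. Counts were summed per library and type (Python 3.11.15, scanpy 1.11.5, numpy 2.4.6, scipy 1.17.1, pandas 2.3.3, matplotlib 3.10.9) and scaled to CPM. Log2 ratios added a pseudocount of 1 UMI to each sum; genes with fewer than 50 summed UMIs in a comparison were not counted, and past 2-fold means at least 2-fold either way. The floor for a count of 0 was 3 UMIs. Shares of cells with a UMI were compared after thinning each cell to 2000 UMIs, leaving out shallower cells. Doublets were called with Scrublet (142 cells, 2.08%, and 37 cells, 0.830%), kept in the values reported and removed in an alternative. With 1 library per genotype, no edgeR or other replicate-based test was run.

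The summing and ratio steps were tested on simulated data for the comparison of all endothelial cells: of 12922 genes, 162 changed by a set 4-fold passed the minimum and 160 of them were recovered past 2-fold, with 6 unchanged genes past it. The genes named were the 9 members in every comparison, listed IGF genes past 2-fold or highest in level, and the genes most like each member by Pearson's r, among genes with at least 200 UMIs. The members, gene lists and comparisons were chosen with earlier results of these data known. Alternatives changed the Cdh5 minimum, the fold, the count minimum, the scaling, the integration, the cell filters and the weighting of types.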

Additional observations from a re-analysis of the deposited data

Results flagged for a closer look

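The Flcn iΔEC against control ratio of Igf1 had opposite directions in different cell types. On the log2 scale it was -3.23 in lymphatic-like cells, -3.20 in venous-like cells and -1.19 in microvascular cells, and 1.43 in mesenchymal-like cells. The mesenchymal value rests on 25 and 27 cells, with 1 cell in each library holding 36.7% and 42.6% of the Igf1 UMIs. With 1 library per genotype, the difference between the cell types was not tested.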

How the results depend on the processing

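No paired analysis was possible because each genotype has 1 library and the labels give no shared replicate numbers. Over all endothelial cells, the count of genes past 2-fold (1268) was 241 at 4-fold, 2149 with at least 10 summed counts and 3815 with no minimum, and the count of members (3) was 0 at 4-fold and 1 at equal type composition. The count of member and type pairs past 2-fold was 5 over endothelial types with at least 20 cells in each library, which left out sinus lymphatic-like cells. It was 8 with endothelial cells taken from 1 Cdh5 UMI, where sinus lymphatic-like cells were included, so the counts cover different types. The 32 single ratios past 2-fold had 354 values under alternatives, of which 7 fell within 2-fold and 0 changed direction. With types taken from marker gates in place of clusters, the lymphatic log2 ratios of Igfbp3 and Igfbp5 were 0.095 and -0.383, and Igfbp5 was -0.981 with median-ratio scaling; with these gates Insr in lymphatic against blood endothelial cells of Flcn iΔEC was -0.997. Without Ptprc-positive cells, the microvascular ratio of Igf1 was -0.974. The cause was not tested. Without integration, only 1 Flcn iΔEC cell was venous-like, so this alternative gave no large artery-like against venous-like value and no venous genotype ratio. Leaving out shared barcodes, and leaving out clusters led by hemoglobin, blood or cell cycle genes, were chosen after seeing the data; neither moved a ratio past or within 2-fold. Igf1 in lymphatic-like cells ranged from -3.62 to -2.13 over 13 alternatives. Depth limits Insr and the levels that rest on few UMIs.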
